A study of Mus musculus with 9 samples.

Results

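The genes described here are those of haemoglobin and of the red cells that carry it, measured in whole stomachs of newborn mice. They are 9 chosen genes, 6 of them among the 21723 genes that could be tested on this array: the embryonic globin genes Hba-x, Hbb-bh1 and Hbb-y, the later globin genes Hba-a1, Hbb-b1 and Hbb-b2, and the erythroid genes Alas2, Slc4a1 and Ahsp. Every non-control probe that the array design, or the current RefSeq name of its transcript, assigns to 1 of these genes was taken, which gave 10 of the 55681 probes. The knockouts were 5 mice with the C/EBPβ gene (Cebpb, a leucine zipper transcription factor) knocked out (KO 1 to KO 5), set against 4 wild-type mice (WT 1 to WT 4). All were killed at birth and each gave 1 Agilent array with 1 colour (Cy3). The labels state neither the strain nor the part of Cebpb that was removed nor where else the gene is lost, and a source field calls the mice old, against the other fields. Each label numbers a separate mouse.

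Haemoglobin is a tetramer of α-like and β-like chains, each folded around a haem. In the mouse, the red cells first made in the yolk sac carry embryonic chains, and those made later in the fetal liver carry the adult-type chains. Reticulocytes, the youngest red cells in blood, have lost their nucleus but still hold globin RNA, so a bulk sample of any organ with blood in its vessels contains it. In such a sample, fewer red cells and less RNA per red cell cannot be told apart.

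The knockout was visible on every array: Cebpb averaged −1.97 ± 0.60 in KO and 3.50 ± 0.32 in WT (SD, n = 5 and 4), so that it fell by 5.47 on the log2 scale (limma adjusted p = 0.000131). Here and below a level is a probe's log2 processed signal relative to the 75th percentile of its array, taken over all probes. That percentile ran from 244.8 to 408.5 on KO arrays and from 194.9 to 351.6 on WT arrays. All 12 stomach genes used to check the tissue, among them the surface cell genes Gkn2 and Tff1 and the proton pump gene Atp4a, were well above background on enough arrays to be tested. They were not level between genotypes: 10 of the 12 lay above 0, against 53% of all genes, and Gkn2 rose by 1.79 (limma adjusted p = 0.0254). Gkn1 (1.85), Tff2 (0.66) and Sox2 (−1.03) did not pass but had groups that did not overlap. With Gkn2 included, 4 of the 12 separated fully, against 3.4% of all genes. KO and WT differed in sex balance, since 3 of the 5 KO arrays and 0 of the 4 WT arrays lacked signal of the Y-linked gene Ddx3y. WT 4 stood apart in several of the values below. WT 4 and KO 2 also had the highest summed signal of the tested liver genes, though not the highest level of each one.

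The sequences of 4 globin probes are shown because their reading separates the globins that were measured from those that were not. Each is 60 bases long, 5′ to 3′ in the sense of the transcript, with no part marked. The first pair reads embryonic genes and the second pair later genes.
Hba-x: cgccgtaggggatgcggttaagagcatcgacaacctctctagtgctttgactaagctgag
Hbb-y: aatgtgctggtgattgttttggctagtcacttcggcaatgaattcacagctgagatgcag
Hba-a1: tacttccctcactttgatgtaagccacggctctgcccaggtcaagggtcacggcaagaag
Hbb-b2: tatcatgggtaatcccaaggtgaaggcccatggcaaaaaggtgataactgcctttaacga
On mouse build mm9 the array design places the Hba-x probe at chr11:32177668-32177727 and the Hba-a1 probe at chr11:32183955-32184014, both on the plus strand, and the Hbb-y probe at chr7:111000448-111000507 on the minus strand. The design leaves the Hbb-b2 probe unmapped on that build, and the RefSeq table places its gene on chromosome 7. For the Hba-a1 probe the design lists 2 transcripts, that of Hba-a1 and that of its near-copy Hba-a2. It lists the same 2 for the Hba-a2 probe, so which of these genes either probe reads is uncertain. The Hbb-b2 probe and the probe of Hbb-bs, another adult β-globin gene, share 2 of the 4 transcripts that the design lists for each.

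Names of the adult β-globin genes need care. Laboratory mouse strains carry either the pair Hbb-b1 and Hbb-b2 or the pair Hbb-bt and Hbb-bs at the same locus. The probe that the design calls Hbb-b1 (mm9 chr7:110961105-110961164, minus strand) was made for a transcript that the RefSeq table now names Hbb-bt, and it is kept under Hbb-b1 here. Which pair these mice carry was not given in the sources used here.

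The embryonic globins were not measurable in these stomachs. Hba-x, the embryonic α-like chain, had a processed signal of 3.26, 4.86, 4.32, 5.50 and 3.82 on KO 1 to KO 5, against 3.08, 2.98, 5.02 and 4.01 on WT 1 to WT 4. The scanner software flagged none of these as well above background. The lowest signal that did carry that flag was between 12.2 and 21.4 on the KO arrays and between 11.2 and 19.0 on the WT arrays, so every Hba-x value lay under it.

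Hbb-y, an embryonic β-like chain, was read by 2 probes, from positions 379 and 559 of its transcript. The printed probe gave 3.09, 5.00, 4.18, 5.41 and 3.74 on KO 1 to KO 5, against 2.95, 2.84, 4.91 and 3.86 on WT 1 to WT 4. The other probe ran from 3.27 to 9.57 in KO and from 2.90 to 6.70 in WT. Neither probe was well above background on any of the 9 arrays, so both genotypes hold only a bound for Hbb-y.

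Hbb-bh1, the other embryonic β-like chain (probe at mm9 chr7:110990209-110990268, minus strand), was the single embryonic globin with any flagged signal. Signals of 21.4, 26, 10.3, 5.82 and 15.7 were read on KO 1 to KO 5, against 3.21, 10.7, 11 and 8.80 on WT 1 to WT 4. It was well above background on 2 of 5 KO arrays (KO 1 and KO 2) and on 0 of 4 WT arrays. KO 5 (15.7) carried no flag although the lowest flagged signal there was 14.6. The other KO arrays overlapped the WT arrays, with KO 4 under 3 of them. The KO mean level of −4.57 did not exceed the WT bound of −4.28, so no fold is given. The mean over the WT signals, none of them flagged, was −5.15, and the KO mean also holds unflagged signals. Since no WT array had any embryonic globin well above background, the planned difference between embryonic and later globins was not formed.

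**Figure D1:**
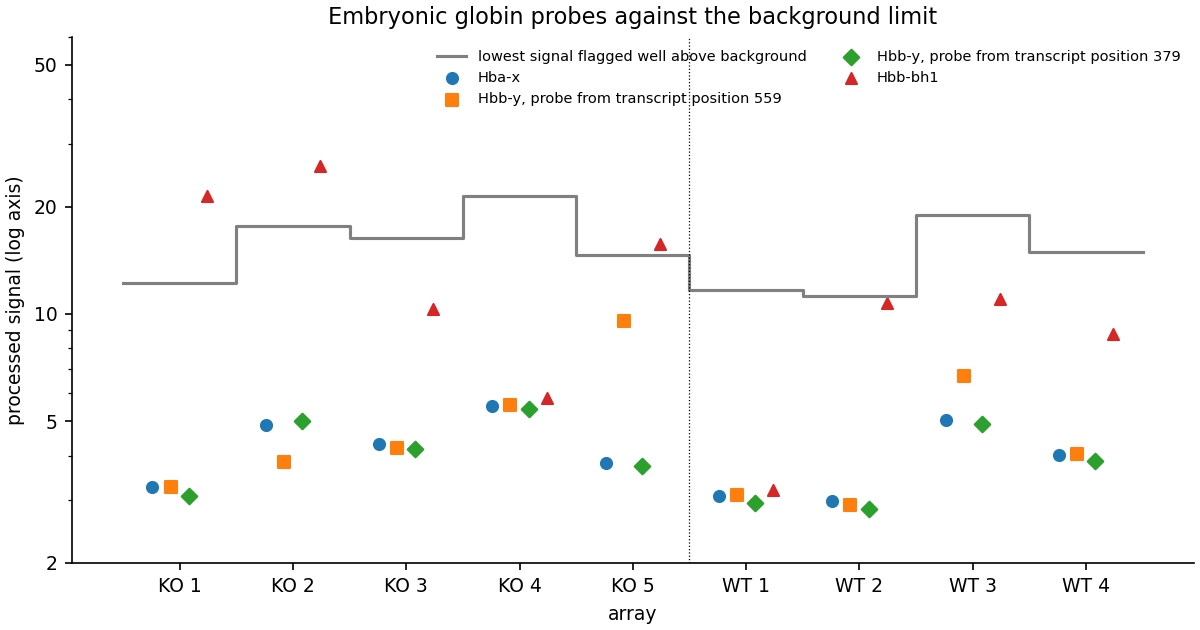
Processed signal (log axis) of the 4 embryonic globin probes on each array, KO arrays left and WT arrays right of the dotted line, with a grey line at the lowest signal flagged well above background on that array. Hbb-bh1 lies clearly over the line on KO 1 (21.4) and KO 2 (26), KO 5 (15.7) lies just over it without a flag, and Hba-x and both Hbb-y probes lie under it on all 9 arrays.

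The later globins and the 3 erythroid genes were well above background on all 9 arrays, which leaves 6 of the 9 genes to test. None of the 6 changed by limma over 21723 genes (lowest adjusted p = 0.318, for Hbb-b2). In the same fit 0.207% of genes were called, 0.129% as higher and 0.0783% as lower in KO. At an unadjusted limma p below 0.05 there was 1 of the 6, against 8.84% of genes. All 6 differences lay above 0, with a median of 0.44, where 53% of all genes did so, with a median of 0.0175. In none of the 6 did the KO and WT arrays separate fully, which 3.4% of genes did (2.43% with KO higher).

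Of the α chains, Hba-a1 encodes the adult-type chain. Its level was 5.70, 5.72, 5.75, 5.95 and 6.73 on KO 1 to KO 5, against 5.99, 5.66, 5.61 and 5.61 on WT 1 to WT 4. The groups overlapped, since WT 1 lay above KO 1 to KO 4, and KO 5 was high. The difference was 0.25 ± 0.23 (SE), with a 95% interval from −0.26 to 0.76 (limma adjusted p = 0.831). Without KO 5 it was 0.06. Its near-copy Hba-a2, which is not among the 9, was highest on WT 4 (8.87) and KO 5 (8.63), and its difference was −0.03 ± 0.27.

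Of the β chains, Hbb-b1 had a level of 4.87, 5.02, 4.74, 4.86 and 5.52 on KO 1 to KO 5, against 4.44, 4.46, 4.66 and 4.85 on WT 1 to WT 4. KO 3 lay under WT 4, and the other 4 KO arrays lay above all WT arrays. The mean was 5.00 ± 0.31 in KO and 4.6 ± 0.19 in WT (SD, n = 5 and 4). The difference was 0.40 ± 0.19 (SE), with limma unadjusted p = 0.0589 and limma adjusted p = 0.582. Its exact permutation p was 0.0397 (two-sided, unadjusted). Leaving out 1 array gave a difference from 0.27 (without KO 5) to 0.48 (without WT 4). The unadjusted exact permutation p was 0.365 for Hba-a1, 0.889 for Alas2, 0.468 for Slc4a1 and 0.151 for Ahsp.

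Hbb-b2, known as the minor adult β chain where it is carried, had the largest difference of the 6. Its level was 3.75, 3.85, 2.76, 3.78 and 3.60 on KO 1 to KO 5, against 2.37, 2.32, 2.75 and 3.08 on WT 1 to WT 4. KO 1, KO 2, KO 4 and KO 5 lay above all WT arrays, and KO 3 lay among them. The mean was 3.55 ± 0.45 in KO and 2.63 ± 0.36 in WT (SD, n = 5 and 4). The difference of 0.92 ± 0.26 (SE), or 1.89-fold, had a 95% interval from 0.34 to 1.49 before any adjustment, and did not pass over all genes (limma unadjusted p = 0.00525, adjusted p = 0.318; exact permutation p = 0.0238). Of all genes, 1.65% had a p as small.

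Slide and sex balance touch this value. On the slide with KO 4, KO 5, WT 3 and WT 4 the Hbb-b2 difference was 0.78, and on the slide with KO 2, WT 1 and WT 2 it was 1.5, and neither value was tested by itself. With slide as a block it was 1.07 ± 0.22 (limma unadjusted p = 0.00216, adjusted p = 0.372). KO 1 and KO 3 were each alone on a slide, so this blocked value rests on the slides above alone. Without KO 3, and with no block, the difference was 1.11. Adjusted for the level of Y-linked genes it was 0.66 (limma adjusted p = 1).

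Hbb-bs, an adult β gene outside the 9, had a level of 1.53, 1.78, 1.41, 1.53 and 1.97 on KO 1 to KO 5, against 1.04, 1.32, 1.43 and 0.15 on WT 1 to WT 4. KO 3 lay just under WT 3, and WT 4 was by far the lowest. Its difference was 0.66 ± 0.26 (limma adjusted p = 0.507).

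**Figure D2:**
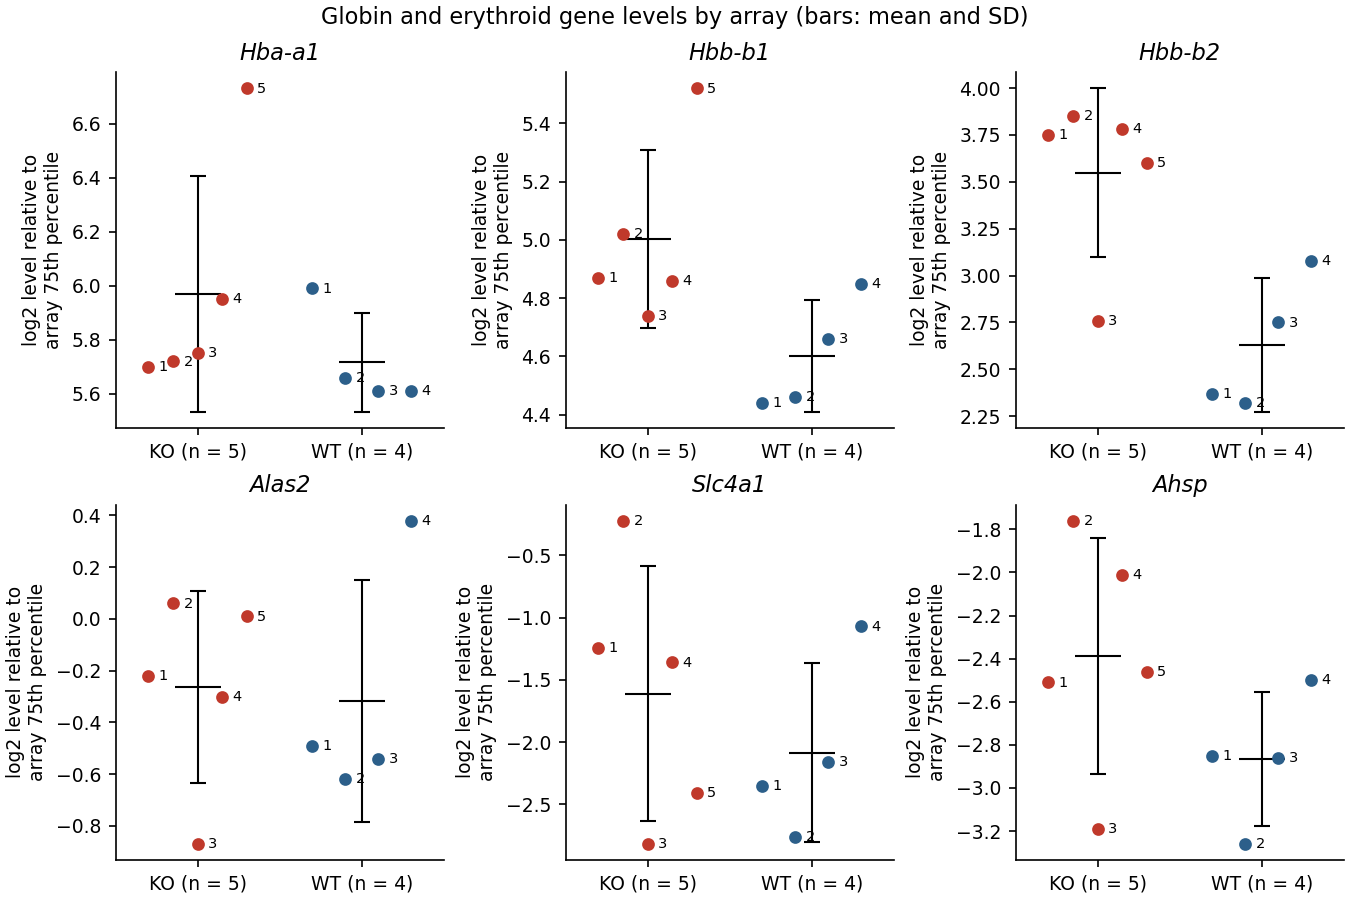
Level of the 6 measured genes on each array (log2 of the processed signal relative to the array's 75th percentile), KO left and WT right, with the mouse number beside each point and bars for the mean and SD. Hbb-b2 has 4 KO arrays above all WT arrays, with KO 3 (2.76) among the WT arrays, and in the other panels the groups overlap as well.

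Within an array, the difference between a pair of probes does not depend on how arrays were scaled. It was computed after the levels had been seen, carries no test, and its size means nothing by itself because probes differ in brightness. Hbb-b2 minus Hbb-b1 was −1.12, −1.17, −1.98, −1.07 and −1.91 on KO 1 to KO 5, against −2.07, −2.14, −1.91 and −1.77 on WT 1 to WT 4. KO 1, KO 2 and KO 4 lay close together and well above the other arrays, whereas KO 3 and KO 5 lay within the range of the WT arrays. The KO mean was −1.45 ± 0.45 and the WT mean −1.97 ± 0.17 (SD), a difference of 0.52 ± 0.22 (SE).

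Hbb-b2 minus Hbb-bs was 2.22, 2.06, 1.36, 2.25 and 1.63 on KO 1 to KO 5, against 1.33, 1.00, 1.32 and 2.93 on WT 1 to WT 4. KO 1, KO 2 and KO 4 again lay above the other KO arrays and WT 1 to WT 3, but WT 4 was the highest of all. Hbb-bs minus Hbb-b1 ran from −3.54 to −3.23 over the KO arrays, and was −3.40, −3.14 and −3.23 on WT 1 to WT 3 but −4.70 on WT 4. Hba-a1 minus Hba-a2 was −2.28, −2.57, −1.95, −1.98 and −1.90 on KO 1 to KO 5, against −2.06, −2.11, −2.23 and −3.26 on WT 1 to WT 4. WT 4 was thus the lowest array for Hbb-bs minus Hbb-b1 and for Hba-a1 minus Hba-a2. Hbb-b1 minus Hba-a1, a β against an α chain, ran from −1.21 to −0.70 in KO and from −1.54 to −0.76 in WT, with a difference of 0.15 ± 0.19, and the groups overlapped.

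**Figure D3:**
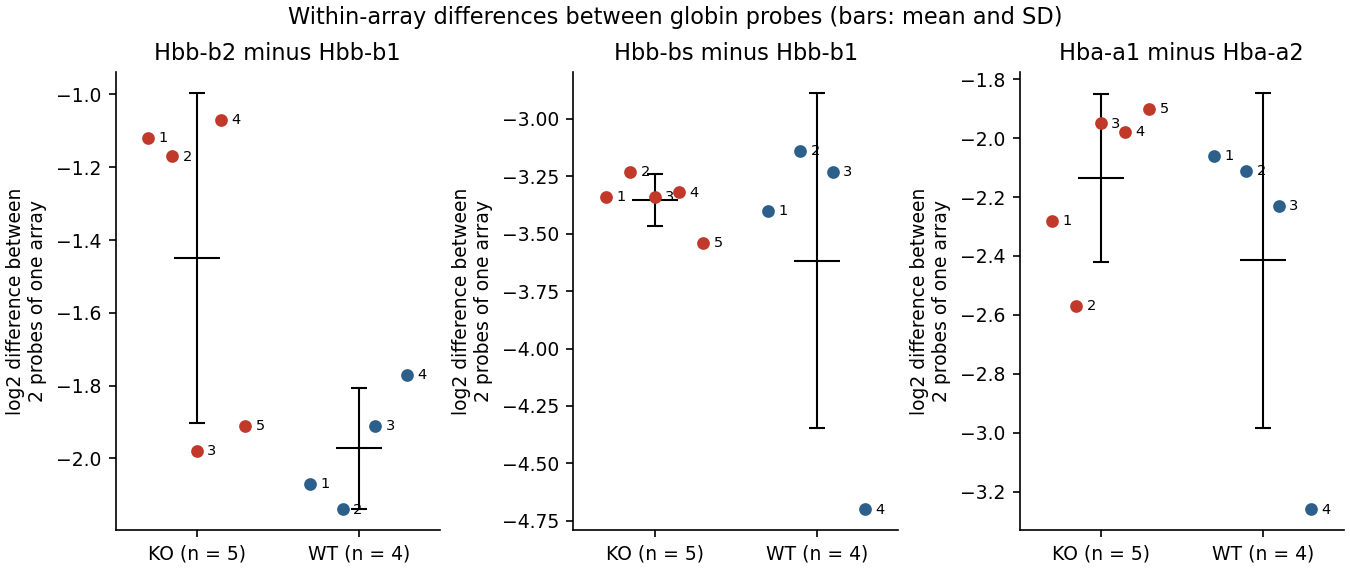
Within-array log2 differences between globin probes, KO left and WT right, with the mouse number beside each point and bars for the mean and SD. For Hbb-b2 minus Hbb-b1, KO 1, KO 2 and KO 4 lie between −1.17 and −1.07 and the other 6 arrays between −2.14 and −1.77, and WT 4 is lowest in the other panels (−4.70 and −3.26).

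The erythroid genes stand for haem, membrane and chaperone. Alas2, on the X chromosome, encodes the erythroid form of the first and rate-limiting enzyme of haem synthesis. Its level was −0.22, 0.06, −0.87, −0.30 and 0.01 on KO 1 to KO 5, against −0.49, −0.62, −0.54 and 0.38 on WT 1 to WT 4. The highest array was WT 4 and the lowest KO 3, and the difference was 0.05 ± 0.26 (95% interval −0.53 to 0.63; limma adjusted p = 0.984). The sign of this small value turned without 5 of the 9 arrays in turn.

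Slc4a1 encodes band 3, the chloride and bicarbonate exchanger of the red cell membrane (probe at mm9 chr11:102210256-102210315, minus strand). Its level was −1.24, −0.22, −2.82, −1.36 and −2.41 on KO 1 to KO 5, against −2.35, −2.76, −2.16 and −1.07 on WT 1 to WT 4. KO 2 lay well above every WT array, and the other 4 KO arrays lay among or near the WT arrays, with KO 3 the lowest of all. Its spread within the groups (pooled SD 0.91) was wider than that of 95.3% of all genes, and the difference of 0.48 ± 0.52 (limma adjusted p = 0.874) had a 95% interval from −0.69 to 1.65. It was 0.13 without KO 2 and 0.82 without WT 4.

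Ahsp encodes the chaperone that holds free α-globin until it meets a β chain. Its level was −2.51, −1.76, −3.19, −2.01 and −2.46 on KO 1 to KO 5, against −2.85, −3.26, −2.86 and −2.50 on WT 1 to WT 4. KO 2, KO 4 and KO 5 lay above all WT arrays, KO 1 just under WT 4, and KO 3 near the bottom. The difference was 0.48 ± 0.28 (95% interval −0.15 to 1.12; limma adjusted p = 0.700).

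**Figure D4:**
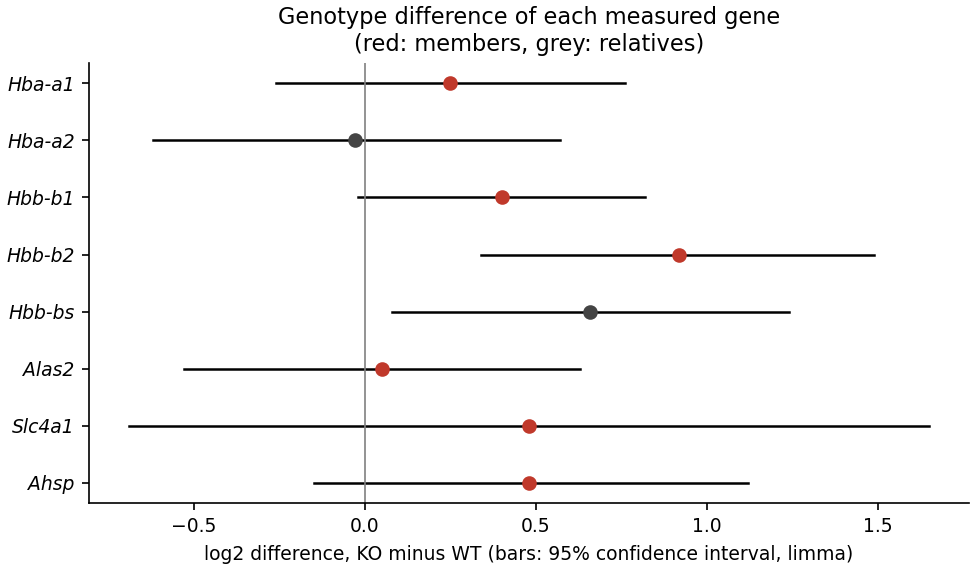
KO minus WT difference (log2) of each measured globin and erythroid gene with its unadjusted 95% confidence interval from limma, the members in red and their relatives Hba-a2 and Hbb-bs in grey. The interval of Hbb-b2 (0.34 to 1.49) and that of Hbb-bs (0.08 to 1.24) leave out 0, and those of the other 6 genes include it.

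Alas2, Slc4a1 and Ahsp shared their extreme arrays. In all 3 the highest KO array was KO 2, the lowest KO array KO 3, the highest WT array WT 4 and the lowest WT array WT 2, and Hbb-b2 had the same 4 extremes. Between the extremes the order differed, as KO 5 was the second highest KO array for Alas2 and the second lowest for Slc4a1. Their mean level was −1.32, −0.64, −2.29, −1.22 and −1.62 on KO 1 to KO 5, against −1.90, −2.22, −1.85 and −1.07 on WT 1 to WT 4. Hba-a1 and Hbb-b1 had another order, with KO 5 the highest of the KO arrays for both. The 3 genes' mean minus the mean of the 3 later globins was −6.26 ± 0.56 in KO and −6.08 ± 0.34 in WT (SD), a difference of −0.18 ± 0.30 (SE), within the spread of either group.

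Liver genes are set beside these values because at birth the mouse liver still makes red cells. Alb, the serum albumin gene, was at −2.28, 1.16, −4.72, −0.28 and −4.63 on KO 1 to KO 5, against −1.03, −2.83, −2.11 and 1.76 on WT 1 to WT 4. It was highest on KO 2 and WT 4 and lowest on KO 3 and KO 5. The signals of the 8 tested liver genes of 10 listed, each relative to the array's 75th percentile, summed to between 22.2 and 69.0 on KO arrays and between 20.7 and 58.2 on WT arrays, with KO 2 and WT 4 at the upper ends. Apoa1, an apolipoprotein gene, ran otherwise. It was at 1.01, 1.75, 1.46, 1.04 and 1.65 on KO 1 to KO 5, against 0.32, 1.1, 0.45 and 0.99 on WT 1 to WT 4, so KO 3 and KO 5 were high and WT 4 lay under 6 arrays. Apoa1 (0.66 ± 0.23; limma adjusted p = 0.447) and the transthyretin gene Ttr (0.53 ± 0.25; limma adjusted p = 0.588) had the smallest p of the list. None of the 8 changed between genotypes, and the part of liver RNA in the values of Alas2, Slc4a1 and Ahsp was not tested.

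The genes with the pattern most like the mean of Alas2, Slc4a1 and Ahsp were sought over all 9 arrays, with each gene centred on its own mean. The 8 nearest outside the members differed from that pattern by a root mean square of 0.22 to 0.26 on the log2 scale, where the pattern itself had a root mean square of 0.52. They were Spn, a sialoglycoprotein gene of leukocytes, at 0.22, Abhd18, Sall1, Gvin1 and the fetal liver gene Afp (α-fetoprotein) each at 0.23, Cep290 at 0.24, Cfap45 at 0.25 and Mier1 at 0.26. None of them changed between genotypes. Of the globins, Hbb-b2 lay at 0.37 from the pattern, Hbb-b1 at 0.47 and Hba-a1 at 0.63. The share of all genes that were as near was 1.03% for Hbb-b2 and 55.2% for Hba-a1, with Hbb-b1 between them. No such pattern could be drawn for the embryonic globins.

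Promoters are shown for Alas2 and for globins whose probes did and did not give a signal, from RefSeq on build GRCm38.p6, and 4 of the 9 genes had an entry. Each is the 120 bases before the transcript start, 5′ to 3′ on the strand of the gene. Capitals mark 4 motifs, searched on both strands, namely CACCC, the motif CCAAT, the motif AGATAA (known for binding GATA factors) and the motif TATAAA.
Hba-x: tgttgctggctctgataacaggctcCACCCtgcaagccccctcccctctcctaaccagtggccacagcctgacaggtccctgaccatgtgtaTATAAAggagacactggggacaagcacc
Hbb-y: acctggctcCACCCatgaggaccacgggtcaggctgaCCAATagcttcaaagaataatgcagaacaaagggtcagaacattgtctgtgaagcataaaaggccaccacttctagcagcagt
Hba-a1: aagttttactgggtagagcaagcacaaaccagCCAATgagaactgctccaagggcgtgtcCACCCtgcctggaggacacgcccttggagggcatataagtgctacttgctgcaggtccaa
Hbb-bt: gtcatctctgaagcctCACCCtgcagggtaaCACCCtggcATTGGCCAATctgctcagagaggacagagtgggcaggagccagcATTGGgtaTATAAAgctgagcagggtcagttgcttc
Hbb-bs: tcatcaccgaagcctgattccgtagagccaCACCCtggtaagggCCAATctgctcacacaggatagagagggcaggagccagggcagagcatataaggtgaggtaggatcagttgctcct
Alas2: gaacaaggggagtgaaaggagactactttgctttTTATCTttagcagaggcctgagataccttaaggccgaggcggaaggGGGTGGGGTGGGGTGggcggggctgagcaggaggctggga
The windows lie at chr11:32276480-32276599 (plus strand) for Hba-x, chr7:103853208-103853327 (minus) for Hbb-y, chr11:32283552-32283671 (plus) for Hba-a1, chr7:103813924-103814043 (minus) for Hbb-bt, chr7:103827929-103828048 (minus) for Hbb-bs and chrX:150547297-150547416 (plus) for Alas2. CACCC, the letters bound by Krüppel-like factors, occurred in each of the 6, and 3 times in Alas2 (as its reverse complement), where 31.7% of all 32851 promoter windows of this length held it. CCAAT occurred in 4 of them, all but Hba-x and Alas2, against 21.3% of all windows. TATAAA occurred in Hba-x and Hbb-bt, against 6.34%, and AGATAA occurred in Alas2 alone of the 6, against 4.36%. In Hbb-bt 2 of the CCAAT matches abut each other on opposite strands. Only these exact letters were searched, so variants of a motif were not counted. A match is a stretch of letters, not a site.

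Around the members, 81 further genes of 6 red cell lists were listed by function, of which 65 were tested. None rose and none fell by limma over all genes (background 0.207% called), 35 lay above 0 and 30 below, and their median was 0.03. These counts leave the lists near the median of all genes, 0.0175.

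The haem pathway had all 9 of its genes measured, with a median of −0.01. Its smallest p belonged to Ppox, which encodes the enzyme before the last step, at −0.58 ± 0.23 (limma adjusted p = 0.496), and to Urod, an earlier enzyme, at 0.32 ± 0.16 (limma adjusted p = 0.600). Of 11 iron genes, 8 lay below 0 (median −0.20), with the mitochondrial iron importer gene Slc25a37 at −0.34 ± 0.18 and Trf, the transferrin gene, at −1.06 ± 0.55. Neither passed the test.

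Of 19 membrane and skeleton genes 10 were tested (median 0.13), with Gypc at 0.42 ± 0.22 and Tmod1 at 0.63 ± 0.49. Rhag, Epb42, Kel, Icam4 and Add2 were among those not well above background on any array. The same held for Klf1 and Gfi1b of the 15 transcription factor and receptor genes and for Trim10 and Trim58, known from red cell maturation, while Gata1, the leading erythroid factor, was well above background on 1 of 5 KO arrays and 1 of 4 WT arrays. Over the 6 lists, 12 of the 81 genes were not well above background on any array.

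Among the 12 tested factors and receptors (median 0.20), Kit, the stem cell factor receptor gene, lay at 0.44 ± 0.15 (limma adjusted p = 0.436), and Lmo2 at 0.22 ± 0.14. For Kit all KO arrays lay above all WT arrays. Such full separation was found in 2 of the 65 tested list genes, Kit and Xpo7 (0.10 ± 0.12), and in 3.4% of all genes. In the gut, Kit also marks interstitial cells of Cajal. Of 17 late red cell genes (median 0.18), Hemgn, the hemogen gene, lay at −0.79 ± 0.25 (limma adjusted p = 0.392) and Car2, a carbonic anhydrase gene that the stomach itself uses, at 0.44 ± 0.22. Hemgn levels were 4.30, 3.85, 4.42, 4.67 and 4.85 on KO 1 to KO 5, against 5.23, 4.65, 5.53 and 5.42 on WT 1 to WT 4, the opposite direction to Hbb-b2 and with KO 4 and KO 5 overlapping WT 2. Of 9 haem clearance genes (median −0.07), the haptoglobin gene Hp lay at −0.95 ± 0.71 and Blvra at 0.22 ± 0.21. Globins outside red cells, Ngb (0.63 ± 0.33) and Cygb (0.35 ± 0.25), did not pass either, and the α-like genes Hbq1a and Hbq1b and the β-like Hbb-bh2 were not well above background on any array.

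Markers of other cells of blood and vessels were read in the same fit. Of 8 tested platelet genes of 12 listed none changed (median −0.29), with Gp1bb at −1.10 ± 0.37 and Ppbp at −1.47 ± 0.56. Their summed signal relative to the 75th percentile ran from 7.73 to 16.9 in KO and from 4.70 to 17.1 in WT, and Gp1ba, Gp5 and Gp6 lacked signal well above background throughout. Of 11 listed granulocyte genes 6 were tested (median of the 6 0.01, 3 above 0 and 3 below). S100a9 fell by 2.75 (limma adjusted p = 0.0179) and the others did not pass. The sum of the 6 ran from 8.46 to 22.9 in KO and from 27.1 to 34.9 in WT. Without S100a9 it ran from 6.56 to 20 in KO and from 6.38 to 16.9 in WT, so the groups then overlapped. Ngp, Prtn3 and Mmp9 were not well above background on any array. None of 12 endothelial genes changed (median 0.27, 10 above 0), with Flt1 at 0.57 ± 0.23 and Egfl7 at 0.31 ± 0.18, and their sum ran from 83.5 to 97.6 in KO and from 70.1 to 93.8 in WT. None of 10 macrophage and leukocyte genes changed (median 0.10), with Adgre1 at 0.58 ± 0.37 and Csf1r at 0.24 ± 0.16. The part of any of these cells in the globin values was not tested.

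**Figure D5:**
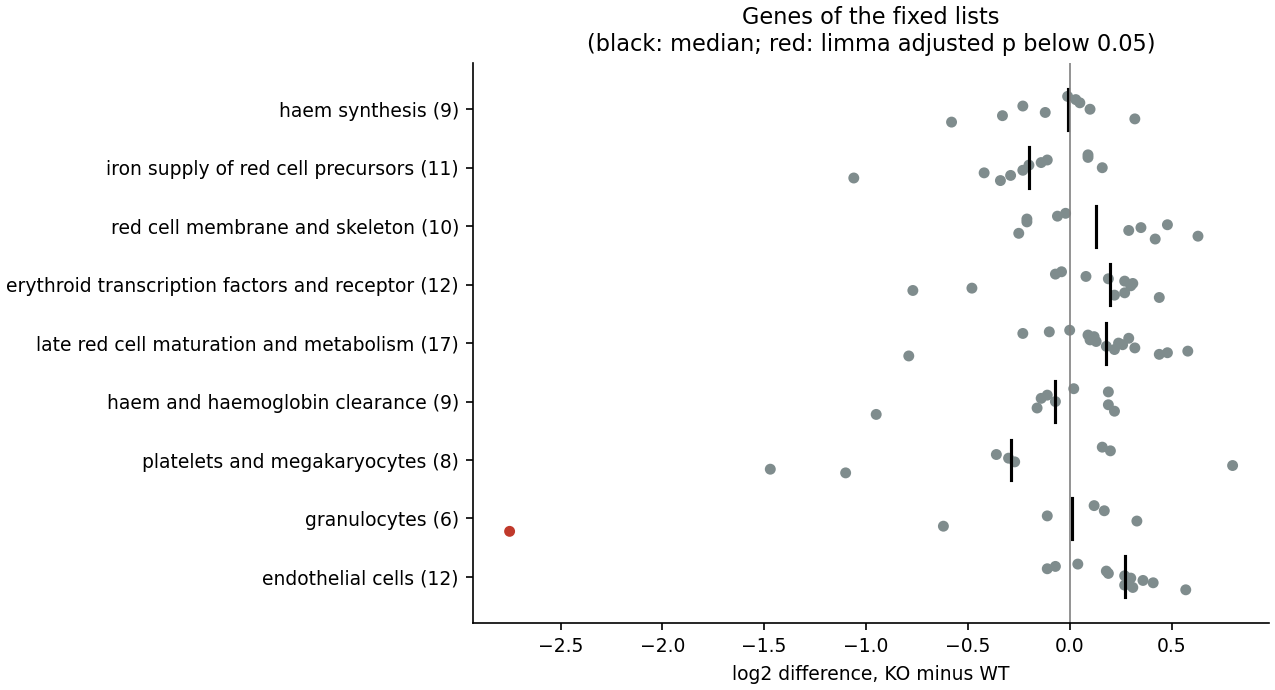
KO minus WT difference (log2) of every tested gene of 9 lists, with the number tested in brackets, the list median as a black bar and genes with a limma adjusted p below 0.05 in red. S100a9, a granulocyte gene, is the single red point, and the medians run from −0.29 (platelets) to 0.27 (endothelial cells).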

How the data were processed

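The scanner files hold spot intensity on a linear scale, made by the authors with Agilent Feature Extraction. The file headers give the protocol (GE1_107_Sep09), the build (mm9) and a grid placement version of 10.5.1.1. For Feature Extraction the submitters' processing notes name version 9.1. Per the file headers, the processed signal was background-subtracted and detrended, with surrogate values for dim spots. The deposited well above background, saturated and outlier flags are values of another kind, set per spot, and 0 spots were saturated. The authors' series matrix holds log2 values whose differences between arrays follow the processed signal after 1 offset per array (largest deviation 3.62e-06). Its column medians were 0.0436, 0.217, −0.124, 0.0347 and −0.137 in KO, against −0.279, −0.161, 0.224 and 0.381 in WT, in order of mouse number, and the centring of its probes is not known.

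Outlier-flagged spots were dropped, spots of a probe averaged, and log2 signal taken minus the array's 75th percentile over probes. Of the probes, 30190 passed a filter of signal well above background on 4 or more arrays, and the brightest one stood for a gene. KO and WT were compared with limma 3.58.1 (R 4.3.3, two-sided, no covariate, Benjamini-Hochberg over 21723 genes, threshold 0.05), with SE from the moderated fit. The exact permutation test runs over 126 splits, with a smallest p of 0.00794. The steps were tested on simulated data. By transcript, 26762 probes matched the RefSeq table (GRCm38.p6). The number of arrays limits the precision.

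Members and lists were chosen with earlier results of these data known. All members are named, as is each list gene past the threshold or, where there is none, the 2 with the smallest p, with all tested globins. Other genes were named after their values were seen. A fit over all 30190 probes called 0 members as well. Alternatives covered background, scaling, filter, probe choice, outlier spots, slide, Y-linked level, replicate number and each array left out.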

Additional observations from a re-analysis of the deposited data

Results flagged for a closer look

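Within-group spread was examined for 22 sets of 4 or 5 values, namely the levels of the 6 measured genes, of Hba-a2 and of Hbb-bs and the 3 within-array differences, each in KO and in WT. In 5 of them 1 array lay far from the others of its genotype by Dixon's test, which chance alone does in about 1 set in 20. Hba-a1 was high on KO 5 (6.73, the next KO array at 5.95) and, within WT, on WT 1 (5.99, the next at 5.66). Hbb-b2 was low on KO 3 (2.76, the next KO array at 3.60), so the lone KO array among the WT arrays for this gene was also the one that stood apart from its group. Alas2 was high on WT 4 (0.38, the next WT array at −0.49). Of the liver genes, Alb was also highest there (1.76), but Apoa1 (0.99) lay under WT 2 (1.1), and a link was not tested. Hba-a1 minus Hba-a2 was low on WT 4 (−3.26, the next WT array at −2.23).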

How the results depend on the processing

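Under the 21 alternatives run, 0 of the measured members were called, with a lowest limma adjusted p of 0.105 for Hbb-b2 without WT 4. Hbb-b2 stayed above 0, from 0.66 to 1.11, as did Hbb-b1 (0.19 to 0.49), Slc4a1 (0.13 to 0.82) and Ahsp (0.10 to 0.79). Hba-a1 turned to −0.06 after adjustment for the Y-linked level. Alas2 turned to −0.19 with that adjustment, to −0.01 with the replicate block, and to −0.03, −0.01, −0.01, −0.05 and −0.02 without KO 2, KO 5, WT 1, WT 2 and WT 3, while it was 0.29 without WT 4. The added difference Hbb-b2 minus Hbb-b1 ran from 0.41 (normexp) to 0.65 (without KO 3). Over all genes 45 were called, against 25 with no filter on dim probes, 5 with slide as a block, 5 with the Y-linked level and 4 with the replicate block. Leaving out 1 array gave 11 (without WT 1) to 149 (without WT 4). The causes were not tested. The replicate numbers name mice and do not pair them: deviations of same-numbered arrays correlated at −0.305, 0.122, 0.153 and −0.482. The difference between embryonic and later globins was not formed under any setting, since no WT array had an embryonic globin well above background.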
